A study of Homo sapiens with 2 samples.

Results

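NRF2 target genes and the genes of glutathione metabolism were examined in SAS cells and in eSAS cells derived from them. SAS is an established human squamous cell carcinoma line from a tongue tumor. eSAS is the population that remained after 5 rounds in which large spheroids of SAS cells were selected with a filter. Lines could be founded from single cells in this procedure, and whether the RNA came from a clone is not given in the sources used here. Both were grown in DMEM with fetal bovine serum, penicillin and streptomycin, no drug or engineered change is named for either, and total RNA was taken from cells in log growth phase. The RNA was labelled with Cy3 and hybridised to 1-colour oligonucleotide arrays, 1 array for SAS and 1 for eSAS, both on the same slide. The members were 36 named genes and every gene whose name on the array had the form of a glutathione S-transferase of the alpha, mu, pi, theta, omega, kappa or zeta class, which added 17 genes. Of these 53 genes, 52 had a probe, out of 30484 gene names on the array, and AKR1C2 had none under its name. They were read by 87 probes on 123 spots, and the scanner software marked none of these spots as non-uniform or as an outlier.

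NRF2, the product of NFE2L2, is a transcription factor for genes that defend cells against oxidants and electrophiles. KEAP1 binds NRF2 and delivers it to a ubiquitin ligase, so NRF2 is controlled largely through the stability of the protein. When KEAP1 is modified by electrophiles or lost by mutation, NRF2 accumulates, pairs with small MAF proteins and binds the antioxidant response element near its targets, which include enzymes of glutathione synthesis, thioredoxin recycling, NADPH supply and quinone reduction. In squamous carcinomas the pathway is often switched on by mutation and is known for its link with drug and radiation resistance.

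The core of the antioxidant response element was searched in RefSeq promoter sequences (GRCh38.p14), which run from 250 bases before to 50 bases after the start of each transcript. The letters searched were TGACNNNGC on both strands, and this motif can overlap the AP-1 motif TGANTCA. A promoter was in the table for 42 of the 53 members, with 55 promoters in all, and the motif was present in 14 of them (25.5%) against 13.3% of 35116 promoters of all genes. By gene, 13 of 42 members (31.0%) held it in at least 1 promoter, against 16.1% of 27305 genes. AKR1B10, CBR3, FTH1, GSR, GSS, GSTT1, GSTT2, HMOX1, PRDX1, SLC7A11 and SOD1 were not in this table. CBR1, ME1 and PGD had ratios of eSAS to SAS signal among the lowest or highest of their role. The stretches shown are theirs and those of GCLM and of both TXNRD1 promoters, with GPX2, GSTP1 and KEAP1 for comparison. Each is read 5′ to 3′ in the direction of the gene, with the motif or its reverse complement in capitals.
GCLM, chr1:93909436-93909484, minus strand: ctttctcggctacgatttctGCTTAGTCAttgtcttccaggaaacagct
TXNRD1, chr12:104215660-104215708, plus strand: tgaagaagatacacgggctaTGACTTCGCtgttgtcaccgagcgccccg
TXNRD1, chr12:104286910-104286958, plus strand: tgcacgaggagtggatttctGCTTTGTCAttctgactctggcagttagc
PGD, chr1:10398843-10398891, plus strand: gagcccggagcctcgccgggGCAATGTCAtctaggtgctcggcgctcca
ME1, chr6:83431160-83431208, minus strand: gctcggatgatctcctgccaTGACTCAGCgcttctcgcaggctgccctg
CBR1, chr21:36069845-36069893, plus strand: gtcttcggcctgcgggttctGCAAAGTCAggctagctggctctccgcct
GPX2, chr14:64942839-64942887, minus strand: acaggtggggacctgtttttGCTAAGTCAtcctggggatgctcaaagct
GSTP1, chr11:67583726-67583774, plus strand: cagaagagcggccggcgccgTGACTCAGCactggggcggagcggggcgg
KEAP1, chr19:10502774-10502822, minus strand: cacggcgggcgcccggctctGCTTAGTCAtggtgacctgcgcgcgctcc

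The match in GSTP1 and that in ME1 also hold the AP-1 motif, whereas the matches printed for the other genes do not. A match describes letters in this window and says nothing about binding.

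On the arrays, the processed signal of each spot was divided by the 75th percentile of its array (1242 for SAS and 1196 for eSAS) and compared as log2 of eSAS over SAS, so that negative values are lower in eSAS. Readings are given as processed signals before this division, so a ratio near 0 can differ in sign from its readings. With 1 array per population no test was possible, and this number of arrays limits how precise the values are. The measure of error is the SD of the log2 ratio among replicate spots of the same probe. This SD was 0.0795 over 211 probes, 0.201 for probes with signals under 100 and 0.0446 for those over 10000, and it leaves out the variation between cultures. A probe was compared where it was well above background on both arrays. Where this held on only 1 array, the difference is a bound. For the other array it used the higher of the probe's own signal and the lowest signal well above background (12.8 in SAS and 15.2 in eSAS). The tissue identity was checked with 12 squamous markers, of which 10 had probes. All 10 were well above background on both arrays and were lower in eSAS, with a median log2 ratio of -0.51, and KRT14, KRT5, PKP1 and SFN were at least 1.5-fold lower. Whether this shift had a part in the results below was not tested. Of the fibroblast markers, COL1A2, COL3A1, DCN and PDGFRB were not well above background on either array, nor were the leukocyte markers PTPRC, CD3E and LYZ or the endothelial markers PECAM1 and KDR. CD14 (215 in SAS and 233 in eSAS), CD79A (2461 and 2396) and VWF (86.0 and 77.1) were well above background on both arrays, and COL1A1 (15.2) and CDH5 (17.0) in SAS alone. LUM was at least 2.40-fold higher in eSAS, at a signal of 29.6.

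The NRF2 and glutathione genes as a group were close to level between SAS and eSAS cells. AKR1B10, an aldo-keto reductase, and GCLM, the modifier subunit of the enzyme that starts glutathione synthesis, were the 2 members at least 1.5-fold lower in eSAS. No member was at least 1.5-fold higher as a mean over its probes. Of the 52 genes on the array, 45 could be compared, 42 of them on both arrays and 3 (AKR1C1, GSTA2 and GSTA4) as bounds. The other 7 genes, GPX3, GSTA1, GSTA3, GSTA5, GSTM2, GSTM4 and GSTT1, were not well above background on either array.

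Over all 20865 genes compared, 4.62% were higher by 1.5-fold or more and 6.34% were lower by as much in eSAS, and of the 45 members 0 were higher and 2 (4.44%) were lower, so that the share lower was near the background. At 2-fold, AKR1B10 was the lone member lower, against 2.14% of all genes. The median log2 ratio of the 42 members was -0.02, with 21 above and 21 below 0, and the median of 19467 genes was -0.0012. Within 1.2-fold were 32 of the 42 members (76.2%) and 72.6% of all genes. The members ranged from -2.48 for AKR1B10 to 0.51 for SOD2. RNA was taken from the whole population, so fewer cells expressing a gene and less of its RNA per cell cannot be told apart.

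**Figure D1:**
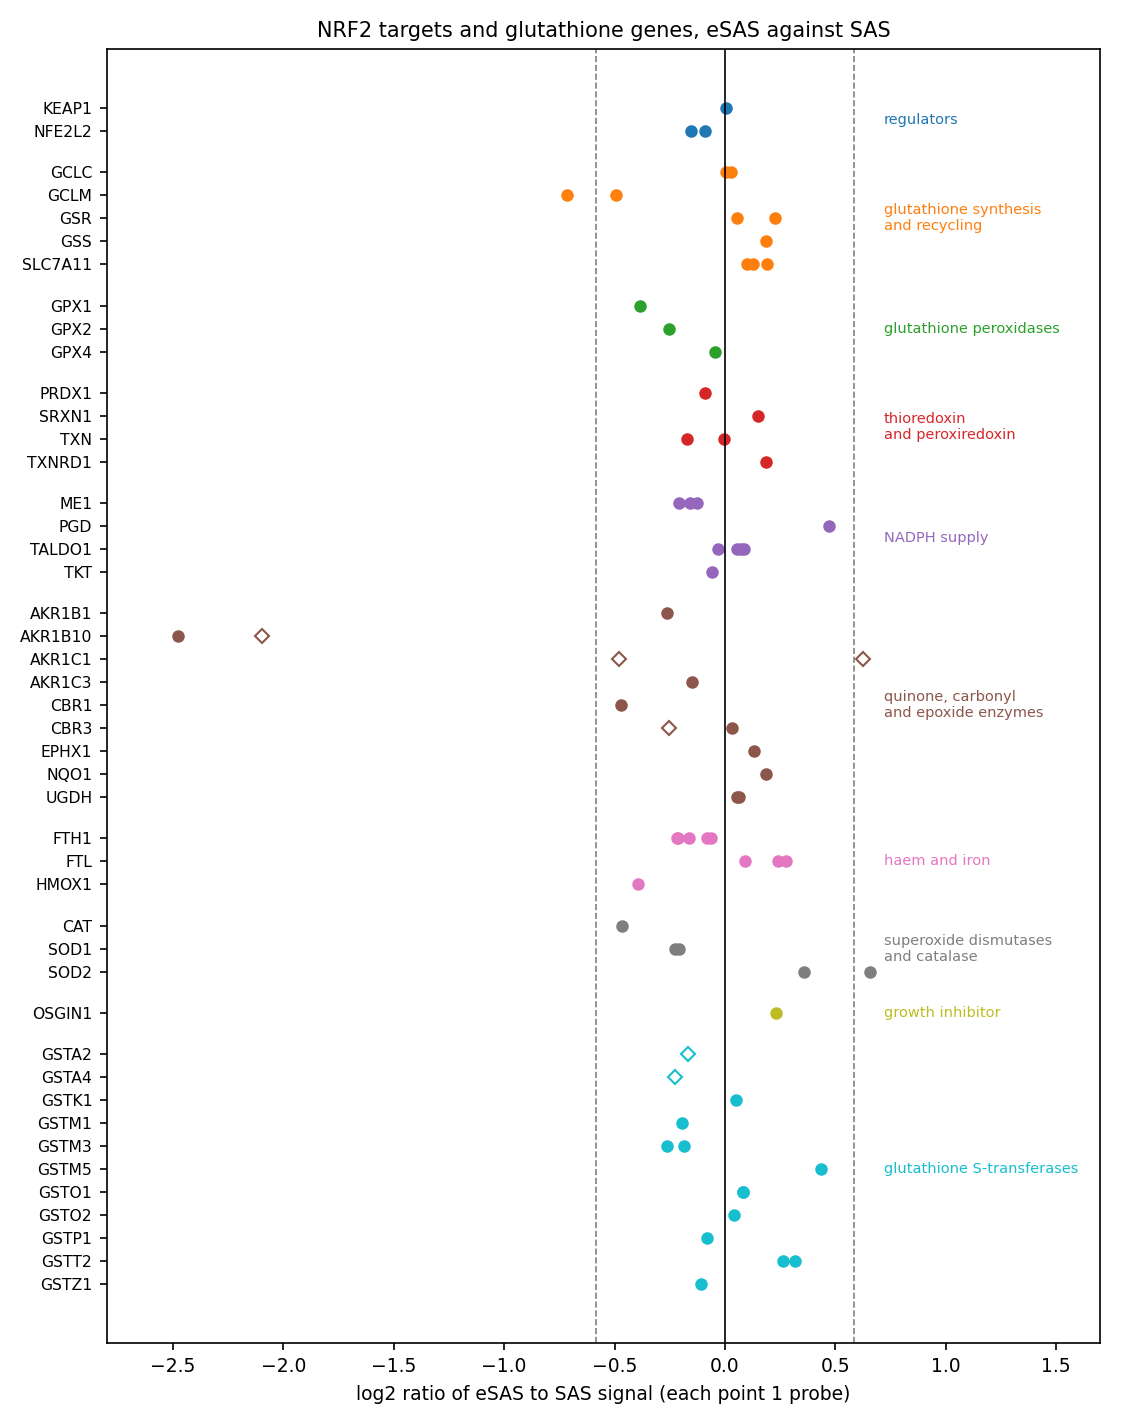
Each point is the log2 ratio of eSAS to SAS signal (horizontal axis) of 1 probe, for the members (vertical axis) grouped and coloured by role. Filled circles are probes well above background on both arrays, open diamonds are bounds, and dashed lines mark 1.5-fold. Most points lie between the dashed lines, and AKR1B10 lies far to the left at -2.48, with a bound at -2.10. GCLM and SOD2 each have 1 probe beyond a line, and AKR1C1 has a bound beyond it at 0.62.

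**Figure D2:**
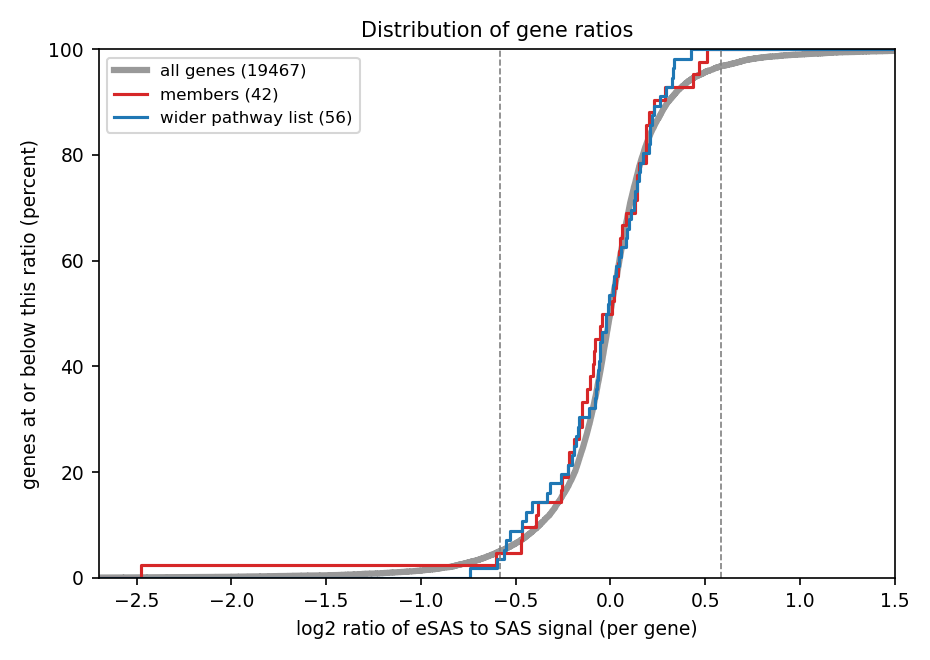
Cumulative share of genes (vertical axis, percent) at or below each log2 ratio of eSAS to SAS signal (horizontal axis) for all 19467 genes measured on both arrays (grey), the 42 members (red) and 56 genes of a wider pathway list (blue), with dashed lines at 1.5-fold. The curves run close together around 0, and the step at -2.48 in the red curve is AKR1B10. The horizontal axis leaves out the most extreme genes of the grey curve.

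The mRNAs of both regulators were near level. The main NFE2L2 probe (hg18 chromosome 2, 177803523 to 177803582) read 14359 in SAS and 12995 in eSAS, a log2 ratio of -0.09. A further NFE2L2 probe read 591 and 511, a log2 ratio of -0.16. KEAP1, the sensor that holds NRF2 down, read 2969 and 2870 (0.0057). Both genes lay within 1.2-fold. The arrays carry no measure of the NRF2 protein.

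In glutathione synthesis and recycling, GCLM stood apart from the other 4 genes. The GCLM probe at 94127122 to 94127181 on hg18 chromosome 1 read 2599 in SAS and 1779 in eSAS, and that at 94123842 to 94123901 read 2715 and 1591. Both probes were lower in eSAS, with log2 ratios of -0.49 and -0.72, and their mean of -0.60 corresponds to 1.52-fold, just past the threshold. The 8 spots nearest to each GCLM probe had median log2 ratios of 0.033 and -0.015. GCLC, the catalytic partner of GCLM in glutamate-cysteine ligase, was level, with 770 and 744 at one probe and 298 and 292 at the other (mean log2 ratio 0.017). The catalytic and modifier subunits had unequal ratios.

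The remaining 3 genes of this role had ratios above 0, except that GSS turned to -0.32 with normexp background correction (a model of signal plus local background) on all spots, and none reached 1.5-fold. SLC7A11 imports cystine, the source of the cysteine in glutathione, and its 3 probes had log2 ratios of 0.098, 0.13 and 0.19. Its brightest probe read 375 in SAS and 395 in eSAS. GSS, which adds glycine in the last step of synthesis, read 11058 and 12126 (0.19). GSR, which returns oxidised glutathione to its reduced form with NADPH, read 1707 and 1708 at one probe and 534 and 602 at the other, a mean log2 ratio of 0.14.

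**Figure D3:**
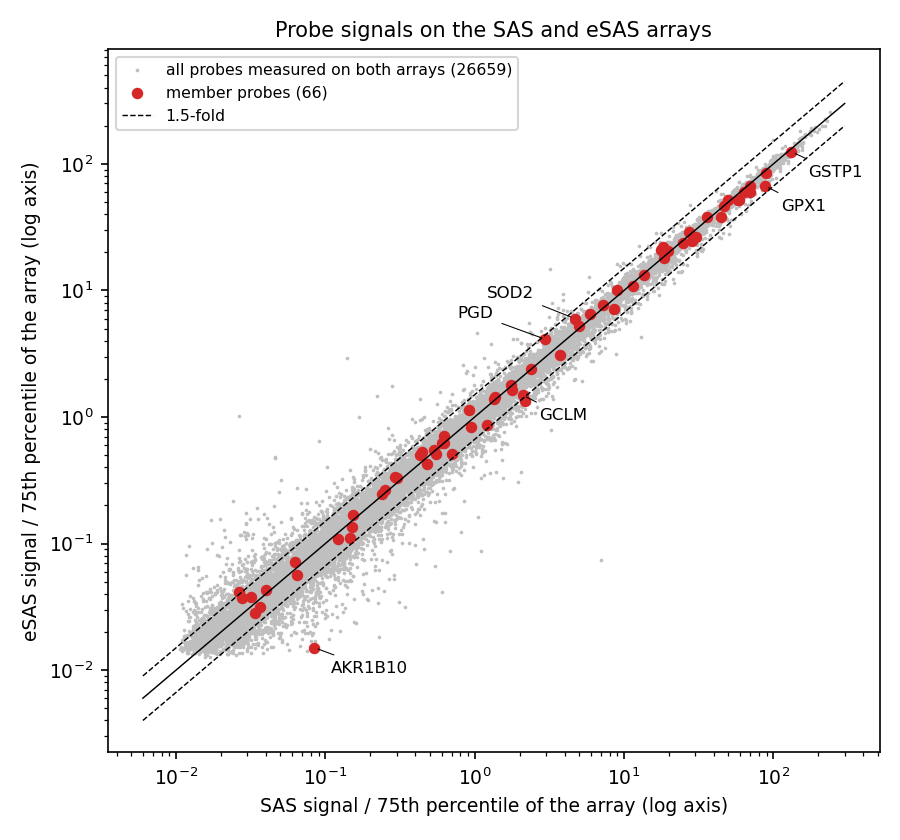
Signal of each probe relative to the 75th percentile of its array, SAS on the horizontal and eSAS on the vertical axis, both logarithmic. Grey points are the 26659 probes measured on both arrays, red points the 66 member probes among them, the solid line marks equality and the dashed lines 1.5-fold. Most red points follow the solid line over the whole range of signals, and the AKR1B10 probe lies well below it at a low signal.

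Glutathione peroxidases reduce peroxides at the expense of glutathione. The 3 members of this role that were measured had ratios below 0, except that GPX2 turned to 2.46 with normexp on all spots. In the wider list described below, GPX5 read 56.9 in SAS and 65.6 in eSAS (0.26), and GPX7 was lower as a bound. GPX1, the widespread cytosolic form, read 108879 in SAS and 80429 in eSAS, a log2 ratio of -0.38. GPX2, best known from the gut epithelium, read 41.7 and 33.7 (-0.25). GPX4, which repairs lipid peroxides in membranes and guards against ferroptosis, read 17015 and 15883 and was nearly level (-0.045). GPX3, a secreted form, read 3.70 and 9.39, neither well above background.

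The 4 members of the thioredoxin system lay within 1.2-fold. TXNRD1, the reductase that recharges thioredoxin, read 768 and 841 (0.19), and SRXN1, which repairs overoxidised peroxiredoxins, read 7289 and 7793 (0.15). Both are regarded as sensitive NRF2 targets. TXN, thioredoxin itself, had log2 ratios of -0.0045 and -0.17 at its probes, and PRDX1, a peroxiredoxin, read 79509 and 71912 (-0.09). In the wider list described below, PRDX2 was 1.48-fold lower, with log2 ratios of -0.54 and -0.58 at its probes. TXNRD2 was at -0.20 there, and PRDX3, PRDX5, PRDX6, TXN2, TXNRD3 and TXNIP were above 0 (0.028 to 0.33).

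Among the 4 members grouped as NADPH supply, PGD had the highest ratio and ME1 the lowest. PGD, phosphogluconate dehydrogenase of the oxidative pentose phosphate pathway, read 3689 in SAS and 4919 in eSAS, 1.38-fold higher (log2 ratio 0.47). The transaldolase TALDO1 (0.045 over 4 probes) and the transketolase TKT (-0.057), which act in the non-oxidative branch, were level. The malic enzyme ME1 had log2 ratios of -0.13, -0.16 and -0.21 at its 3 probes, the brightest reading 2218 and 1954. PGD and ME1, whose promoters both hold the motif printed above, lay on opposite sides of 0, except with normexp on all spots, where both were above 0 and PGD, at 0.021, was the lower of them.

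The lowest ratio of any member was that of AKR1B10, which reduces aldehydes and retinal and is a frequently used marker of NRF2 activity in squamous carcinoma. Its probe at 133876479 to 133876538 on hg18 chromosome 7 read 104 in SAS and 18.0 in eSAS, 5.57-fold lower. A separate probe at 133876339 to 133876398 read 69.8 in SAS and 15.7 in eSAS, where it was not well above background, and was at least 4.28-fold lower. The eSAS values lay near the lowest signal measured as well above background on that array, 15.2. Before any background subtraction the mean pixel intensity of the brighter probe was 161 in SAS and 66.8 in eSAS, over local backgrounds of 30.0 and 29.0. The 8 spots nearest to each probe had median log2 ratios of 0.27 and 0.14, opposite in sign to AKR1B10.

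The size of the AKR1B10 difference depended on how the background was handled. Without background correction it was 2.31-fold lower. With normexp background correction it was 2.15-fold lower when spots with marked local backgrounds were left out, and it turned to a log2 ratio of 1.83 when they were kept, a setting that also moved the median of all genes to 0.68 and gave 15 members higher and 10 lower. In that setting 16 of the 42 members changed sign. They were AKR1B10, AKR1C3, CAT, FTL, GPX2, GSS, GSTK1, GSTM1, GSTO1, GSTO2, GSTZ1, HMOX1, KEAP1, ME1, SRXN1 and TALDO1. GCLM was -0.57 when arrays were centred on the median, which shifts all genes alike and left GCLM at -0.60 relative to them, and -0.49 when the brightest probe stood for the gene, the values of -0.57 and -0.49 being short of 1.5-fold.

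Of the other quinone, carbonyl and epoxide enzymes measured on both arrays, none reached 1.5-fold except with normexp on all spots. Their ratios lay on both sides of 0. NQO1, the quinone reductase most used as a readout of NRF2, read 364 in SAS and 399 in eSAS (0.19), the highest ratio of this role among genes measured on both arrays. AKR1B1, the aldose reductase that neighbours AKR1B10 on chromosome 7, read 10627 and 8532 (-0.26). CBR1, a carbonyl reductase, read 1495 and 1038, 1.39-fold lower (-0.47), while its relative CBR3 read 665 and 654 at its measured probe (0.031). AKR1C3, which reduces steroids and prostaglandins, read 151 and 131 (-0.15). EPHX1, an epoxide hydrolase, was at 0.13, and UGDH, which makes the sugar donor for glucuronidation, at 0.06.

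AKR1C1, a dihydrodiol dehydrogenase close in sequence to AKR1C2, had 4 dim probes that disagreed. The probe at 4995636 to 4995695 on hg18 chromosome 10 read 3.20 in SAS, not well above background, and 19.0 in eSAS, at least 1.54-fold higher. The probe at 5008064 to 5008123 read 22.0 in SAS and 13.3 in eSAS, where it was not well above background, a bound of -0.48. The other 2 were not well above background on either array, with readings between 3.75 and 8.56. Readings this close to or below the lowest signals well above background give no order for AKR1C1. In addition, 2 of its probes are listed on the array for transcripts of both AKR1C1 and AKR1C2.

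The genes of haem and iron handling differed in direction, although with normexp on all spots HMOX1 turned to 1.53 and FTL to -0.38. HMOX1, the haem oxygenase induced by oxidants, was read by 10 spots of 1 probe on each array. In SAS the lowest, median and highest signals were 168, 180 and 196, and in eSAS they were 123, 133 and 142. No eSAS spot reached any SAS spot, and the log2 ratio was -0.39 (SD 0.081 over the 10 spots). The spots of 1 array share the same labelled RNA and are not replicates of the cells. FTL, the ferritin light chain, was higher at each of its 3 probes (0.089, 0.24 and 0.28), and FTH1, the heavy chain, was lower at each of its 5 probes (-0.22 to -0.063).

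**Figure D4:**
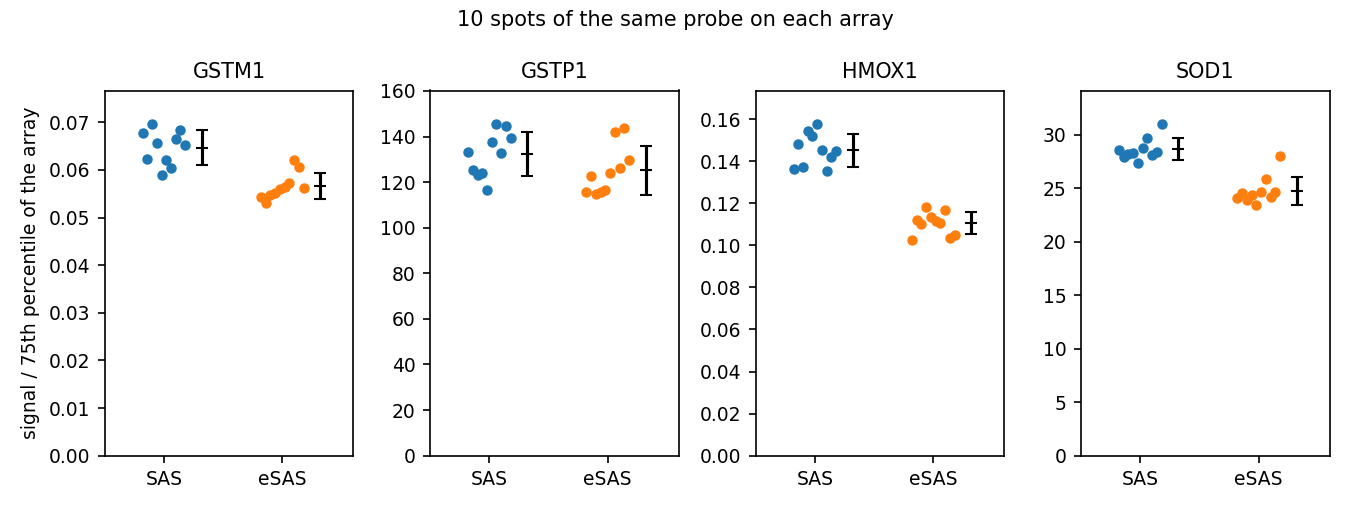
Signal relative to the 75th percentile of the array (vertical axis, from 0) for the 10 spots of the same probe on the SAS and the eSAS array (horizontal axis), for GSTM1, GSTP1, HMOX1 and SOD1. Points are single spots and bars show the mean with the SD over 10 spots. The HMOX1 spots of the arrays are fully separate, with a log2 ratio of -0.39, whereas the GSTP1 spots overlap widely.

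The enzymes against superoxide and hydrogen peroxide differed in direction as well. SOD2, the mitochondrial manganese form, had the highest mean ratio of all members measured on both arrays, 0.51 or 1.42-fold. Its probes read 5808 and 7175 (0.36), and 32.6 and 49.5 (0.66). The top rank of SOD2 did not hold in every alternative. With the brightest probe per gene, SOD2 was at 0.36 and PGD at 0.47. SOD2 was also below PGD without background correction (0.35 against 0.46) and with normexp without marked local backgrounds (0.27 against 0.46). SOD1, the cytosolic copper and zinc form, had 10 spots with a lowest, median and highest signal of 34001, 35162 and 38515 in SAS and 27997, 29248 and 33484 in eSAS. These did not overlap before scaling, and after scaling the highest eSAS spot alone reached into the SAS range. The log2 ratio was -0.21 (SD 0.028 over spots), and its single-spot probe was at -0.22. CAT, the catalase of peroxisomes, read 872 and 608, 1.38-fold lower (-0.47), but turned to 0.17 with normexp on all spots. OSGIN1, an oxidant-induced growth inhibitor, read 39.8 and 45.0 (0.23).

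The glutathione S-transferases, which join glutathione to drugs and other electrophiles, made up the largest role. Of 17 genes found, 9 were measured on both arrays, with a median log2 ratio of 0.041, and none was 1.5-fold different. GSTP1, the pi class enzyme known for its abundance in squamous tumors, had a lowest, median and highest signal over 10 spots of 144799, 165134 and 180859 in SAS and of 137331, 147513 and 171687 in eSAS. Its spots overlapped, and the log2 ratio was -0.08 (SD 0.064). The antioxidant response element printed for GSTP1 is thus in a promoter whose transcript was near level.

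Of the 9 transferases measured on both arrays, GSTM5 had the highest and GSTM3 the lowest ratio, both of the mu class. GSTM5 read 34.4 in SAS and 44.7 in eSAS (0.43) at its measured probe, whose 8 nearest spots had a median of 0.81, of the same sign and larger, and their part in this ratio was not tested. GSTM3 had log2 ratios of -0.26 and -0.19, its brighter probe reading 4632 and 3722. GSTM1 had 10 spots with a lowest, median and highest signal of 73.1, 81.3 and 86.6 in SAS and of 63.4, 67.1 and 74.2 in eSAS, a log2 ratio of -0.19 (SD 0.097) with ranges that met at their ends. The GSTM1 probe is also listed for a GSTM4 transcript, so the reading may combine both genes. A further probe listed for both genes read 6.44 in SAS and 6.96 in eSAS. Neither it nor the probes listed for GSTM4 alone were well above background, and the part of each gene was not tested.

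The other classes were near level or dim. In the theta class GSTT2 was higher at both probes (0.32 and 0.26), reading 1132 and 1357 at the brighter. GSTO1 and GSTO2 of the omega class were at 0.081 and 0.041, GSTK1 at 0.05 and GSTZ1, which also acts in tyrosine breakdown, at -0.11. The alpha class was hardly detected. GSTA2 and GSTA4 were well above background only in SAS, at signals of 17.7 and 18.4, with bounds of -0.17 and -0.22, and GSTA1, GSTA3 and GSTA5 on neither array. The GSTA2 reading comes from a probe also listed for GSTA1 and GSTA5 transcripts, and the probe listed for GSTA2 alone read 3.05 and 3.15, not well above background.

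Members with and without the antioxidant response element motif in the promoter window searched both had medians close to 0. Bases outside this window were not searched, so this is not a split into NRF2 targets and other genes. The 12 with the motif that were measured on both arrays had a median log2 ratio of -0.037 and ranged from -0.60 for GCLM to 0.47 for PGD, with 6 below 0. The 20 with a promoter that lacked the motif had a median of -0.014 and ranged from -0.47 for CAT to 0.51 for SOD2, with 10 below 0.

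Many spots on the SAS array in rows 450 to 510 were marked by the software, and 6 members were measured only there, namely AKR1C3, CAT, CBR1, GPX1, GSS and PRDX1. None of their own spots was marked. The median log2 ratio was 0.0073 for probes of this area and -0.0055 for those of the other rows. Only single-spot probes well above background on both arrays counted here, and marked spots were left out. The 8 spots nearest to CAT, CBR1 and GPX1 had medians of 0.26, 0.17 and 0.19, opposite in sign to these genes. Those nearest to GSS (0.19), PRDX1 (-0.38) and AKR1C3 (-0.0074) had the sign of the gene, at GSS with the same size and at PRDX1 with a larger one, and the part of the area in these ratios was not tested.

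A wider list of 69 genes covered the rest of the pathway, including partners of NRF2, other NADPH and glutathione enzymes, peroxiredoxins and transporters. Of these, 58 could be compared, 0 were at least 1.5-fold higher and 3 (5.17%) were at least 1.5-fold lower, again near the background of 6.34%. The median log2 ratio of the 56 measured on both arrays was -0.016. PRDX4 was left out because its spot was marked. SMS, the spermine synthase of polyamine metabolism, was lower at both probes (-0.68 and -0.80), reading 20974 and 12586 at the brighter. GPX7, a peroxidase of the endoplasmic reticulum, read 56.5 in SAS and 4.69 in eSAS, where it was not well above background. It was at least 3.58-fold lower, with its other probe not well above background on either array. The bound for GPX7 was 1.59-fold without background correction and 1.66-fold with normexp without marked local backgrounds. With normexp on all spots GPX7 was not past 1.5-fold. The highest ratio of the list was 0.42, that of SQSTM1, an autophagy receptor that binds KEAP1.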

How the data were processed

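SAS and eSAS RNA was hybridised to 1 array each, both on 1 slide. The authors deposited the output of Agilent Feature Extraction (10.7.3.1, per the submitters' processing notes), whose intensity values are linear, were corrected for background within each array and were not scaled between arrays. The deposited series table was equal to the processed signal at every spot. Scaling and filters behind the study's own fold changes are not given in the sources used here.

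The log2 processed signal minus each array's 75th percentile over spots other than controls was used. Spots marked as non-uniform or outliers were left out and replicate spots were averaged. A probe passed as well above background on an array if over 50 percent of its spots did. The log2 ratios of probes that passed on both arrays were averaged per gene. For the others, the higher of the probe's own signal and the lowest signal well above background gave a bound. A gene counted as lower or higher from 1.5-fold, and the share within 1.2-fold is a description with a limit set after the values were seen. The groups have no residual degrees of freedom, so no test was made. The counting was run on simulated data with 200 genes changed 2-fold and the same spot SD for all probes. All 200 were recovered and 0 of 20260 others were called. This checks the counting alone, because it leaves out the larger SD of dim probes and the variation between cultures.

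The members and lists were chosen with earlier results of these data known. Genes are named as on the array. Of 87 member probes, 79 carried a RefSeq accession, 78 matched the gene table of GRCh38.p14 and 0 had another symbol there. Probes are placed by the hg18 positions in the scanner output, and exon or UTR annotation of that build was not used here. Values are given for NFE2L2, KEAP1 and core targets, members past 1.5-fold, the extremes of each role, and members with disagreeing probes or with spots in rows 450 to 510. The result of 1 gene of the wider list is not reported here, although counts include it. Alternatives were no scaling, median centring, quantile normalization, normexp (offset 50) with and without marked local backgrounds, no background correction, the series table, stricter or no filtering of dim probes, keeping marked spots, rows 450 to 510 left out and the brightest probe per gene. The software was R 4.3.3, limma 3.58.1 and Python 3.11.15.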

Additional observations from a re-analysis of the deposited data

How the results depend on the processing

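The median of the members moved by less than the spot SD in every alternative tried, but relative to the median of all genes it went from -0.018 to -0.70 with normexp on all spots and to -0.12 without a filter or lower limit. Counts differed by more than 1.5 times as follows. Without scaling, 6 genes of the wider list were lower. With centring on the median, 1 member was lower (AKR1B10), although 2 were relative to all genes, and with the brightest probe per gene also 1 (AKR1B10). Without a filter or lower limit, 1 member (GPX3, not well above background) was higher. With normexp on all spots, 15 members were higher and 10 lower, as were 16 and 9 genes of the wider list, the median of all genes was 0.68, and AKR1B10 reversed to 1.83. Relative to that median, 10 members were higher and 24 lower. The cause was not tested for any of these. The sign of 16 of 42 members turned with normexp on all spots and of 6 without scaling, against 0 or 1 in each other alternative. Over 12 alternatives AKR1B10 ranged from -2.53 to 1.83 and GCLM from -0.78 to -0.49. No paired analysis was possible because there was 1 array per population, and with both arrays on 1 slide the slide could not be a block. Signal over background limits the dim genes, AKR1B10 in eSAS among them.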
